A study of Mus musculus with 24 samples.

Results

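MHC class I presentation genes place peptides made inside a cell on its surface. The 10 genes described here were H2-K1, H2-D1, H2-Q7 and H2-Q10 (heavy chains), B2m (the light chain), Tap1, Tap2 and Tapbp (peptide transport and loading), Psmb8 (a proteasome subunit) and Nlrc5 (a transcriptional regulator). They were chosen by symbol, and all 10 were found among the 54658 gene symbols of both count tables. In each of the 3 tissues all 10 passed the filter on low counts. Wild-type male C57BL/6 mice aged 7 to 12 weeks received β-nicotinamide mononucleotide (β-NMN, a precursor of NAD+) intraperitoneally at 185 mg/kg per day, or saline as vehicle, from the induction of peritonitis onwards. The peritonitis mice were dosed once a day for 3 days, whereas the methods place the last dose 24 h before euthanasia, so that mice taken 24 h after CLP had only the dose given after surgery. In the sterile peritonitis experiment, 6 vehicle and 6 β-NMN mice received 1 ml of 4% thioglycolate (TGC) medium, and their peritoneal lavage cells were plated on day 3 and exposed to E. coli for 6 h before RNA was taken. In the cecal ligation and puncture (CLP) experiment, which causes polymicrobial sepsis from gut contents, hearts and lungs came from 3 vehicle and 3 β-NMN mice 24 h after surgery, both organs from each mouse. Every peritoneal library thus came from bacteria-stimulated cells and every organ library from a septic mouse, and no unstimulated or sham library was analysed here. The source field of the organ samples names thioglycollate peritonitis, whereas their titles and tissue fields name CLP, which is used here.

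Class I molecules consist of a polymorphic heavy chain bound to β2-microglobulin, and they are read by CD8 T cells and natural killer cells. Peptides are cut by the proteasome, whose interferon-inducible form holds Psmb8 (LMP7), moved into the endoplasmic reticulum by the Tap1-Tap2 transporter, and loaded with the help of tapasin (Tapbp). H2-K1 and H2-D1 encode the classical molecules of the C57BL/6 strain, H2-Q7 encodes a form of the nonclassical Qa-2 antigen, and H2-Q10 encodes a secreted molecule known mainly from liver. Interferon-γ raises most of these genes, and NLRC5 acts as a coactivator at class I promoters, where it is held by RFX, CREB/ATF and NF-Y proteins.

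The upstream regions of the 4 heavy chains and of B2m are shown as background, since known control elements of the family lie in such regions. Of the 10 genes, 8 had a RefSeq window in GRCm38.p6 (250 bases before to 50 after the start). Tap2 and Nlrc5 had none. Each sequence is written 5′ to 3′ on the strand of its gene and ends at or before the annotated start. Capitals mark matches to 4 motifs on either strand: GGGATTCCC (the enhancer A or NF-κB type), TTTCNNTT (the interferon response type), TGACG (the CREB/ATF type) and CCAAT (the NF-Y type, ATTGG on the other strand). The motifs overlapped nowhere in these sequences.
H2-K1: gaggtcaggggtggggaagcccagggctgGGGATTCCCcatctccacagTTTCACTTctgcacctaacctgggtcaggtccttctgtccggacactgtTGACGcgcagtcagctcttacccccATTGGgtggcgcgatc
H2-D1: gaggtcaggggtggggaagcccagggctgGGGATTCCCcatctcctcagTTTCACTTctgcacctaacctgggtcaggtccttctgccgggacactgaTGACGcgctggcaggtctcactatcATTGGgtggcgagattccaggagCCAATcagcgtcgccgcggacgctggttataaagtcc
H2-Q7: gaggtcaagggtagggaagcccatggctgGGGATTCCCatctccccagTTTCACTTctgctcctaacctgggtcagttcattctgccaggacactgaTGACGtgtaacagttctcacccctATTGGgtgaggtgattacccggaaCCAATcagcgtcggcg
H2-Q10: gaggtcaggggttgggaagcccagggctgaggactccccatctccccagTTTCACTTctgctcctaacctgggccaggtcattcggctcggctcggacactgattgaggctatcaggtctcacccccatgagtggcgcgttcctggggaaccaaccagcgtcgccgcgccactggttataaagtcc
B2m: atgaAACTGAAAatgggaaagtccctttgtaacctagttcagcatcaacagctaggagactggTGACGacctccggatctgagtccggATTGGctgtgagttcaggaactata

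These stretches lie at chr17:34000348-34000486 (minus strand) for H2-K1, chr17:35262895-35263077 for H2-D1, chr17:35438994-35439154 for H2-Q7, chr17:35469885-35470070 for H2-Q10 and chr2:122147546-122147658 for B2m, the last 4 on the plus strand. The H2-D1 stretch lies within the span that GENCODE M21 gives to the gene, since an annotated transcript starts farther upstream at base 35262730. H2-K1, H2-D1 and H2-Q7 each held all 4 motifs in the same order, with the GGGATTCCC match starting 110, 170 and 132 bases before the RefSeq start. H2-Q10 held the interferon type motif only. In peritoneal cells H2-K1, H2-Q7 and H2-Q10 were called lower after β-NMN and H2-D1 was not. The part of these motifs in those changes was not tested. Where H2-K1 has GGGATTCCC, the aligned H2-Q10 bases differed by G1A and T5C, counted from the first base of the motif. Aligned over the region of the capitals and the bases around it, H2-K1 and H2-D1 were 90.2% identical, and H2-Q10 was 82.1% identical to H2-K1, 82.7% to H2-D1 and 79.5% to H2-Q7. H2-Q7 was 83.2% identical to H2-K1 and 84.2% to H2-D1. Among all 32851 RefSeq windows of this length, GGGATTCCC occurred in 0.353%, TTTCNNTT in 23.9%, TGACG in 20.8% and CCAAT in 37.4%, so the last 3 are common strings. B2m held the last 3 but not GGGATTCCC, Tap1 held TGACG and CCAAT, Tapbp held CCAAT, and Psmb8 held none in its window.

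Total counts ranged from 31126823 to 112456050 in peritoneal libraries, from 27319513 to 68523239 in hearts and from 8915366 to 28356786 in lungs. Values below are CPM, the counts scaled to a library's total after TMM normalization, each tissue scaled on its own. The labelled tissues carried their defining markers: Adgre1 (macrophages) lay at 496 to 709 CPM in peritoneal libraries, Myh6 (cardiomyocytes) at 18000 to 33800 CPM in hearts and Sftpc (alveolar type 2 cells) at 14000 to 31000 CPM in lungs. In 1 vehicle mouse, replicate 2, both organs stood apart. Its lung was the shallowest library and had the lowest macrophage marker sum among the lungs (1370 CPM). Its heart had the highest mesothelial marker sum among the hearts (81.4 CPM). The lowest vehicle heart had 1.17 CPM in that sum, and β-NMN hearts had 0.155 to 4.34 CPM. For the 10 genes in heart and in lung, the change without this mouse's library is also given where it differed in sign or by over 1.5 times.

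In peritoneal cells, 3 of the 4 heavy-chain genes were lower after β-NMN: H2-Q10, H2-Q7 and, by a smaller step, H2-K1. H2-D1, B2m and the peptide-loading, proteasome and regulator genes did not pass the test. Of the 10 genes, 3 were called lower and 0 higher at an adjusted p under 0.05, where 27.9% of the 14985 genes tested were called lower and 23.7% higher, so the share of members called lower was near the background and that of members called in either direction was below the 51.6% of all genes. As a median, the log2 fold change of the 10 was -0.06, beside -0.02 over all genes tested. The groups did not overlap for these 3 genes, as for 26.6% of all genes tested.

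H2-Q10, the secreted heavy chain, lay between 12.3 and 24.1 CPM in the 6 vehicle libraries (median 17.6) and between 0.866 and 1.71 CPM in the 6 β-NMN libraries (median 0.969). Every vehicle library was above every β-NMN library, and the underlying reads numbered 544 to 2431 against 33 to 96. The log2 fold change was -4.03 ± 0.21 (SE), a level 16.3-fold lower (adjusted p = 6.6e-09, exact permutation p = 0.00216, the smallest that 6 against 6 allows). In bulk RNA, fewer cells of an expressing type and less RNA per cell cannot be told apart. Liver markers were near 0 in both groups, with a summed level of 0.436 to 0.819 CPM in vehicle and 0.279 to 1.23 CPM in β-NMN libraries over Alb, Apoa1, Apoa2, Fgb and Ahsg.

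H2-Q7, the Qa-2 heavy chain, had 502.2 to 959.9 CPM in vehicle libraries (median 721.4) and 286.7 to 356.8 CPM in β-NMN libraries (median 316.9). The groups did not overlap, and the β-NMN libraries were the more alike. The log2 fold change was -1.18 ± 0.14 (2.27-fold lower, adjusted p = 5.8e-06). H2-K1, a classical heavy chain, had 3066 to 4124 CPM in vehicle libraries (median 3514) and 2466 to 2869 CPM after β-NMN (median 2688). These groups did not overlap either, but the gap between them was small. Its log2 fold change was -0.41 ± 0.10 (1.33-fold lower, adjusted p = 0.0022). Among only the 5 libraries above 70000000 counts, H2-K1 was at -0.30 with an adjusted p of 0.223, and among the 7 below at -0.41 with 0.0485.

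H2-D1, the other classical heavy chain, had 4614 to 6192 CPM in vehicle libraries (median 5557) and 5408 to 6530 CPM in β-NMN libraries (median 5904). The groups overlapped, and the log2 fold change was 0.12 with a 95% interval of -0.09 to 0.33 (adjusted p = 0.347). Within a library, the ratio of H2-D1 to H2-K1 counts was 1.5 to 1.59 in vehicle and 2.18 to 2.42 in β-NMN libraries. That ratio separated the groups although H2-D1 alone did not, and it shows unequal change of the pair rather than which of them changed.

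**Figure D1:**
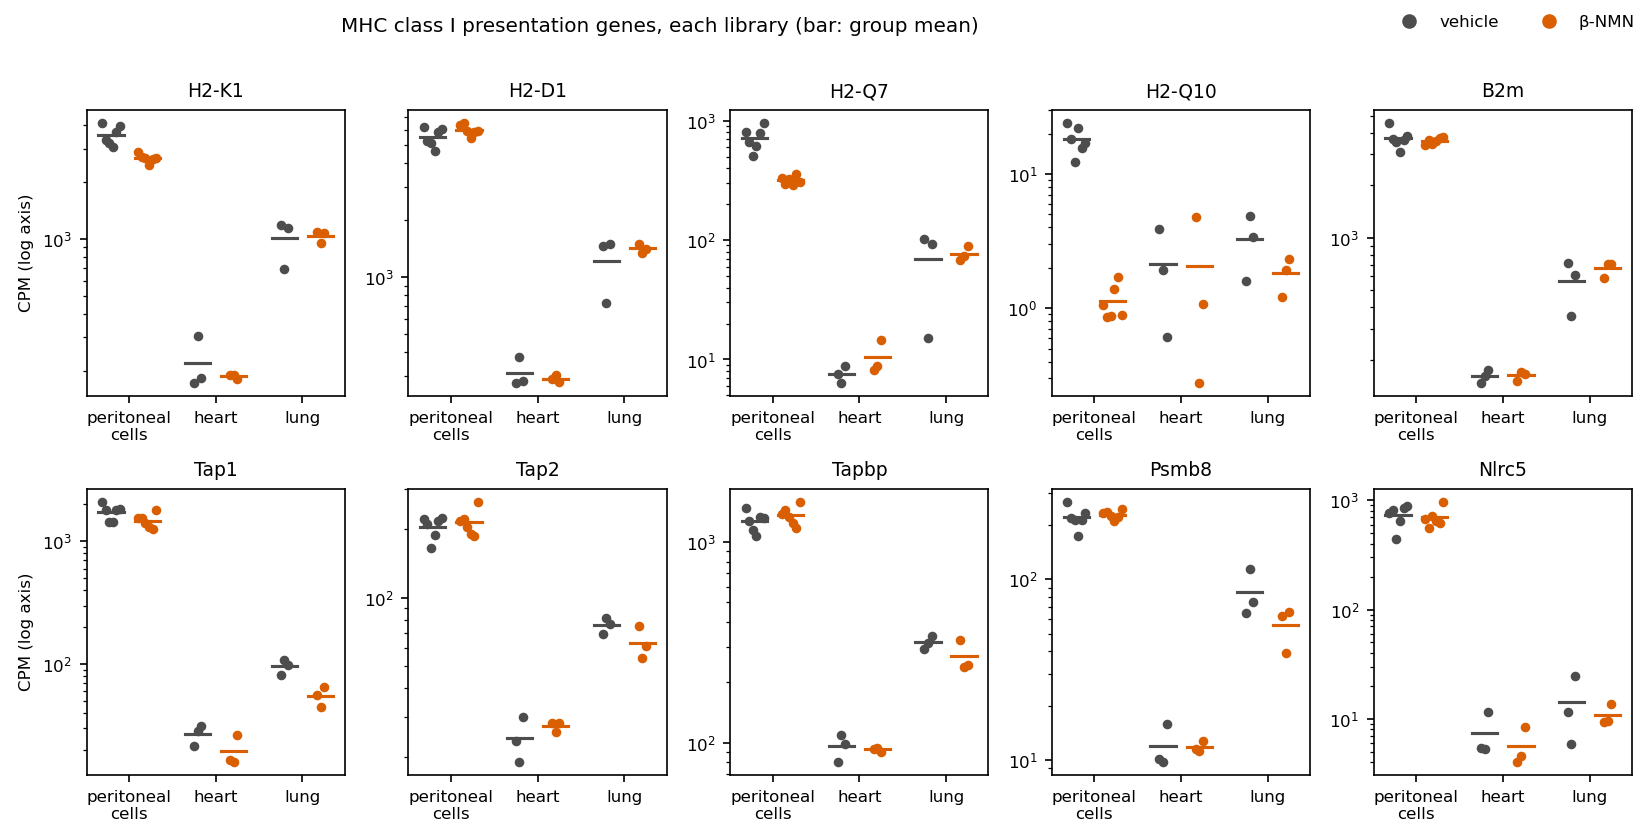
Level of each of the 10 genes in every library (points, CPM on log axes that differ between panels) by tissue, with vehicle in grey, β-NMN in orange and a bar at each group mean. In peritoneal cells the H2-Q10, H2-Q7 and H2-K1 points of the 2 treatments do not overlap, and in lung the same holds for Tap1.

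Reads of H2 paralogs can be shared, so the 25 heavy-chain genes in the tables were also summed. The summed heavy-chain level was 10610 to 14420 CPM in vehicle and 10500 to 12330 CPM in β-NMN libraries, which overlap. The log2 fold change of the sum was -0.14 with a 95% interval of -0.36 to 0.09 (adjusted p = 0.305). Within that sum H2-D1 took 43.7% ± 1.1 (SD, n = 6) of reads in vehicle and 51.9% ± 0.98 in β-NMN libraries, H2-K1 28.3% ± 0.52 and 23.3% ± 0.52, and H2-Q7 5.65% ± 0.71 and 2.76% ± 0.25. As a measure of sharing, 5.9% of the 150-base windows in annotated H2-Q7 transcripts and 3.43% of those of H2-Q10 occurred identically in transcripts of other genes, against 1.35% for H2-D1 and 0% for H2-K1. For H2-Q7 the other genes were H2-Q10, H2-Q6 and H2-Q5. The part of shared reads in these changes was not tested.

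Of the 29 heavy chains listed, 14 passed the filter in peritoneal cells, of which 6 were called lower and 2 higher, beside 27.9% lower and 23.7% higher over all genes tested. Their median log2 fold change was -0.37, beside -0.02 over all genes. H2-Q6, the neighbour of H2-Q7 and also a Qa-2 gene, fell from 503.2 to 203 CPM (-1.31 ± 0.12, adjusted p = 7.85e-07). H2-T24 rose from 213.8 to 299.8 CPM (0.49 ± 0.15, adjusted p = 0.0147), and H2-K2 rose from 96.4 to 127.1 CPM (0.40 ± 0.13, adjusted p = 0.0178).

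B2m, the shared light chain, had 3095 to 4553 CPM in vehicle libraries (median 3670) and 3409 to 3769 CPM in β-NMN libraries (median 3594). The β-NMN values lay wholly inside the vehicle range. Its log2 fold change was -0.06 with a 95% interval of -0.26 to 0.15 (adjusted p = 0.659).

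The transporter and loading genes overlapped between groups as well. Tap1, the first transporter subunit, had 1422 to 2103 CPM in vehicle (median 1801) and 1270 to 1810 CPM in β-NMN libraries (median 1466), a log2 fold change of -0.23 ± 0.12 (adjusted p = 0.117). Its call was not the same in every fit, since limma-voom with a quality weight per library gave -0.33 with an adjusted p of 0.00536. Tap2, its partner, had 164.5 to 223.8 against 185.8 to 263.9 CPM (0.07, interval -0.15 to 0.29), and Tapbp, which bridges transporter and heavy chain, had 1072 to 1481 against 1176 to 1591 CPM (0.10, interval -0.12 to 0.31). Of the 10 genes listed for peptide loading and trimming, all tested, 4 were called higher and 0 lower, with a median of 0.20. Over all genes 23.7% were called higher and 27.9% lower, with a median of -0.02. The 2 with the smallest p were Canx (calnexin, 253.2 to 313.4 CPM, 0.31 ± 0.08, adjusted p = 0.00388) and Calr (calreticulin, 292.9 to 400.4 CPM, 0.45 ± 0.12, adjusted p = 0.00437), both chaperones of newly made glycoproteins.

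Psmb8, the immunoproteasome subunit, had 174.2 to 269.6 CPM in vehicle libraries (median 216) and 209.6 to 244.3 CPM in β-NMN libraries (median 228.6), and the latter range lay inside the former. Its log2 fold change was 0.05 with an interval of -0.15 to 0.25. None of the 6 genes listed for the immunoproteasome and its activator was called by edgeR, and none had an unadjusted p under 0.05. Their log2 fold changes ran from -0.05 to 0.05. Of the 14 constitutive core subunits, 4 were called higher, led by Psma3 (0.46, adjusted p = 0.000433) and Psmb1 (0.34, adjusted p = 0.00284), and 2 lower, Psmb4 (-0.30, adjusted p = 0.00355) and Psmb5 (-0.24, adjusted p = 0.0389). The share of these subunits called was below the 51.6% of all genes called in either direction.

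Nlrc5, the class I coactivator, spread widely in both groups, from 440.4 to 881.3 CPM in vehicle (median 791.3) and from 553.2 to 973.6 CPM in β-NMN libraries (median 661.4). The groups overlapped over most of their range. The log2 fold change was -0.07 with an interval of -0.43 to 0.28 (adjusted p = 0.744). Among the 15 listed genes of transcriptional control, 5 were called lower and 2 higher, beside 27.9% and 23.7% of all genes. Creb1 (a CREB protein, -0.55, adjusted p = 8.59e-05) and Irf9 (a factor of the type I interferon response, -0.46, adjusted p = 0.000598) led the former, and Irf8 (a macrophage and dendritic cell factor, 0.78, adjusted p = 0.0202) led the latter.

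Upstream of these genes, 6 of the 10 listed interferon ligands (3), receptors (4) and receptor-bound JAK kinases (3) were called lower and 1 higher, with a median of -0.29. Over all genes tested 27.9% were called lower and 23.7% higher, with a median of -0.02. Ifngr1, the ligand-binding chain of the interferon-γ receptor, fell from 74.4 to 27.9 CPM (-1.42 ± 0.09, adjusted p = 3.21e-08). Ifng itself, a product of T and NK cells in the main, averaged 617.3 and 201 CPM (-1.62 ± 0.36, adjusted p = 0.00168). Ifnb1, the type I ligand interferon-β, rose from 6.79 to 18 CPM (1.41 ± 0.21, adjusted p = 6.09e-05). Among 9 class I-like molecules, of which 7 were tested, Procr (the endothelial protein C receptor) fell from 370.9 to 43.6 CPM (-3.09 ± 0.29, adjusted p = 8.95e-07), and Ulbp1 (0.51, adjusted p = 0.0108) and Fcgrt (the neonatal Fc receptor, 0.40, adjusted p = 0.0221) were called higher.

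**Figure D2:**
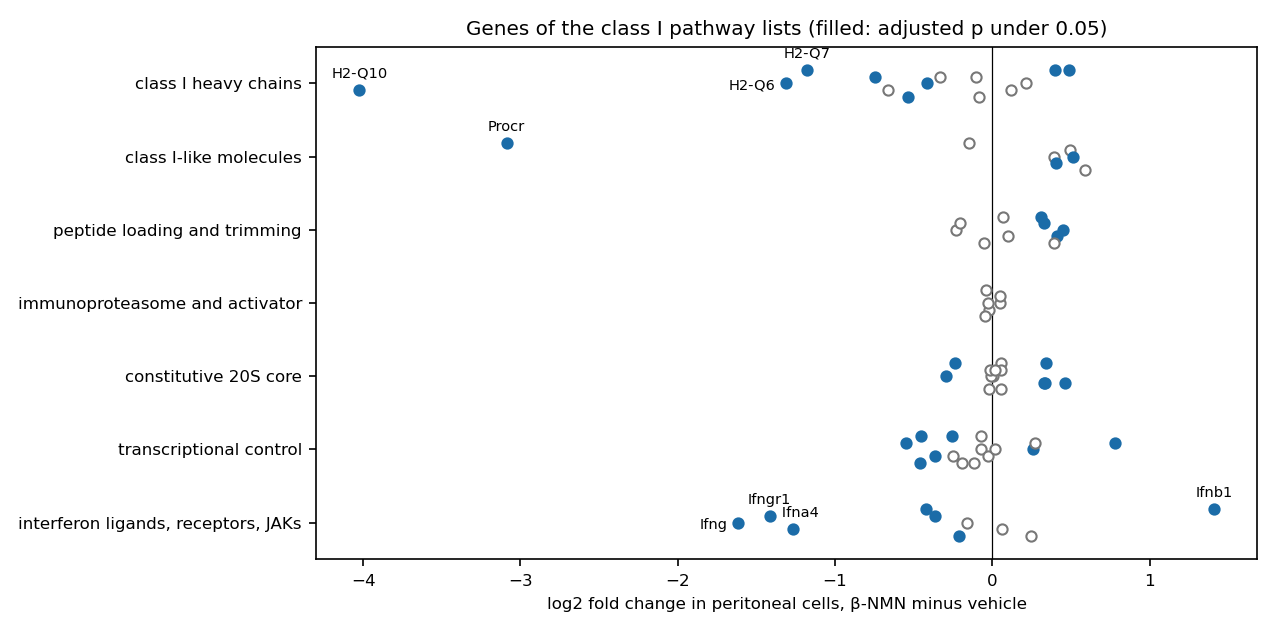
Log2 fold change in peritoneal cells (x axis, β-NMN minus vehicle) of each tested gene of 7 class I pathway lists (rows), filled where the adjusted p was under 0.05 and named where the change exceeded 1 in size. H2-Q10 at -4.03 and Procr at -3.09 lie farthest from 0, and the immunoproteasome row stays between -0.05 and 0.05.

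Marker sums of other cell types moved with these changes. Over 8 macrophage markers the summed level was 5710 to 8660 CPM in vehicle and 10600 to 12200 CPM in β-NMN libraries, with 3 genes called higher and 0 lower, and over 3 erythroid markers it was 2.69 to 33.1 and 44.6 to 114 CPM (3 of 3 higher). Sums were lower after β-NMN over 6 neutrophil markers (477 to 989 against 327 to 456 CPM, 5 genes called lower and 1 higher). Csf3r made up most of the neutrophil sum, with means of 554 and 370 CPM. S100a8 fell from 87.4 to 2.78 CPM, whereas Retnlg rose from 6.59 to 17 CPM. Sums were also lower over 4 NK cell markers (15.5 to 79.9 against 7.61 to 11.7 CPM, 4 of 4 genes called lower), over 6 T cell markers (5.75 to 22.7 against 2.37 to 5.04 CPM, 6 of 6 lower), over 5 dendritic cell markers (32.7 to 53 against 14.1 to 18.3 CPM, 3 lower and 1 higher) and over 4 fibroblast markers (74.1 to 812 against 17.1 to 64.4 CPM, 4 of 4 lower). Over all genes tested 27.9% were called lower and 23.7% higher. The sums of B cells (30.6 to 149 against 20.6 to 81.6 CPM) and mast cells (100 to 217 against 77.4 to 156 CPM) were among those that overlapped. No listed marker gene was at 0 in all peritoneal libraries. The part of cell composition in the changes of H2-Q10, H2-Q7 and H2-K1 was not tested.

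**Figure D3:**
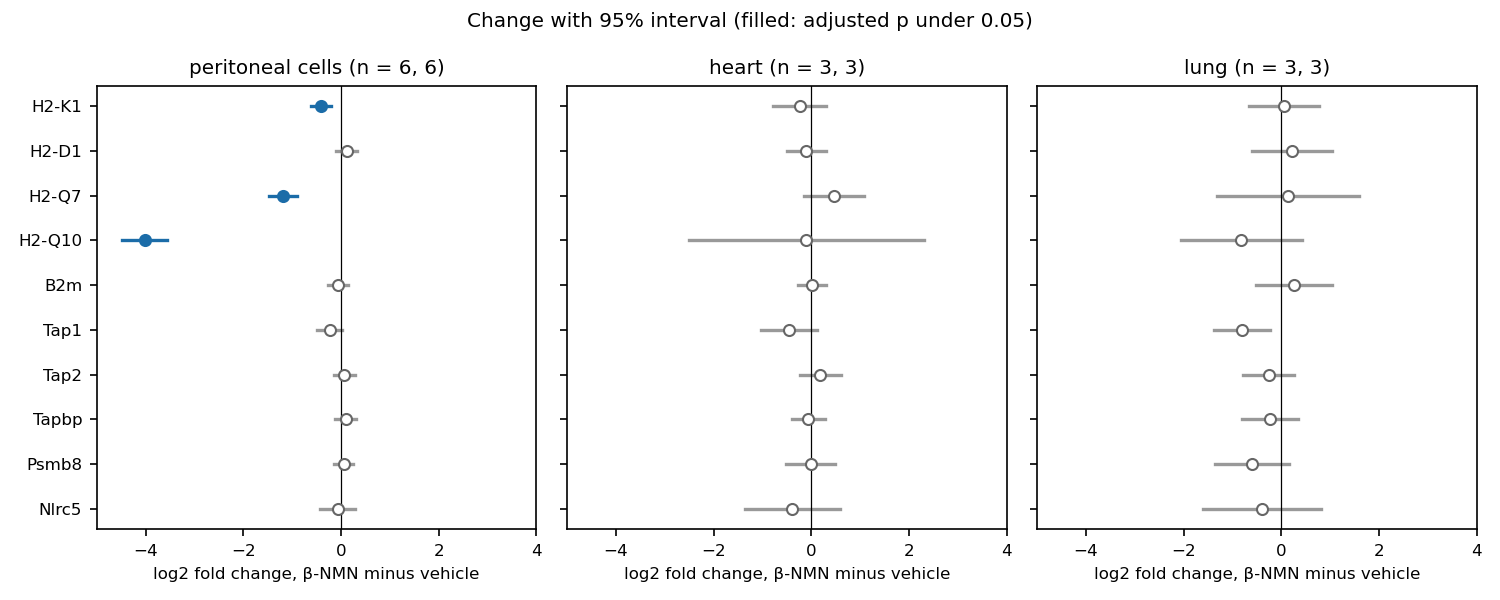
Log2 fold change (points) and 95% interval (lines) of the 10 genes in each tissue, β-NMN minus vehicle, filled where the adjusted p was under 0.05. H2-K1, H2-Q7 and H2-Q10 in peritoneal cells are filled, and in heart and lung no point is.

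In hearts after CLP, none of the 10 genes was called by edgeR, DESeq2 or limma-voom, and none had an unadjusted p under 0.05 by any of them. Over all 16245 genes tested, edgeR called 0%, with 1837 genes at an unadjusted p under 0.05, while DESeq2 called 287 and limma-voom 3. Groups did not overlap for 0 of the 10, against 23.1% of all genes tested. H2-K1 stood at 171.9, 305 and 183.6 CPM in vehicle hearts and 188.9, 190.3 and 180.8 CPM in β-NMN hearts. The highest value belonged to the vehicle replicate 2 heart, and the log2 fold change was -0.24 with it and 0.06 without it (interval of the former -0.79 to 0.31). H2-D1 had 274.6, 379.3 and 280.2 CPM in vehicle and 289, 302.2 and 278.1 CPM in β-NMN hearts, again highest in that mouse, with -0.10 with it and 0.06 without it. B2m was even across hearts, at 147.2 to 173.8 CPM in vehicle and 152.1 to 170.6 CPM in β-NMN hearts, and its interval of -0.27 to 0.31 was the narrowest of the 10 in this tissue. Tap1 had the smallest p of the members (vehicle 21.5, 28.4 and 31.2 CPM, β-NMN 16.7, 16 and 26.7 CPM, -0.45 ± 0.24, adjusted p = 0.46), and its groups overlapped. H2-Q7 had 7.62, 6.34 and 8.88 CPM in vehicle and 8.19, 8.89 and 14.5 CPM in β-NMN hearts (0.47, adjusted p = 0.461). The other 4, Tap2, Tapbp, Psmb8 and Nlrc5, had log2 fold changes from -0.38 to 0.19. Without the vehicle replicate 2 heart, Tapbp moved from -0.0557 to 0.0436, Tap2 from 0.186 to 0.0344 and Psmb8 from -0.00772 to -0.135. No gene of the 7 pathway lists was called, and the smallest p in each list belonged to H2-Q7, Procr (-1.03, adjusted p = 0.435), Tap1, Psmb10 (0.20), Psma1 (0.25), Irf8 (-0.89, adjusted p = 0.435) and Ifngr1 (0.22).

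H2-Q10 in hearts varied more among libraries than between treatments. It was at 3.87, 1.92 and 0.611 CPM in vehicle and 4.8, 0.277 and 1.08 CPM in β-NMN hearts, on 15 to 252 reads. The 6 hearts had the same order for H2-Q10 as for the summed liver markers, which ran from 16.5 CPM in the lowest to 248 CPM in the highest, both of them β-NMN hearts. The log2 fold change was -0.10 with an interval of -2.51 to 2.30, the widest of the 10, and -0.23 without the vehicle replicate 2 heart. In lungs the order of H2-Q10 was not that of the liver markers, which ran from 14.4 to 32.1 CPM in vehicle and from 5.12 to 11.7 CPM in β-NMN lungs. The part of liver RNA in the heart values was not tested. Marker sums that did not overlap between the treatments in heart were those of neutrophils (18.5 to 33.2 CPM in vehicle, 12.4 to 13.8 CPM in β-NMN hearts), dendritic cells (13.5 to 24.4 against 25.9 to 29 CPM), cardiomyocytes (29600 to 46100 against 48100 to 52400 CPM) and endothelial cells (758 to 781 against 796 to 955 CPM), with no gene called and their part not tested. Groups also did not overlap for 23.1% of all single genes tested in heart.

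**Figure D4:**
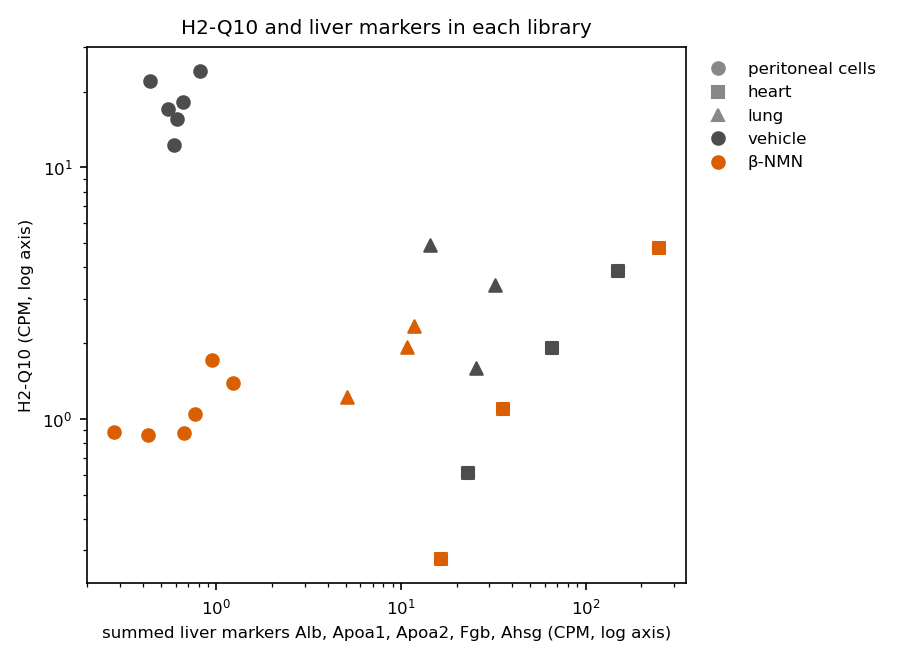
H2-Q10 (y axis) against the sum of 5 liver markers (x axis) in each of the 24 libraries, both in CPM on log axes, with a shape per tissue and a colour per treatment. Vehicle peritoneal libraries combine 12.3 to 24.1 CPM of H2-Q10 with under 1 CPM of liver markers, whereas the hearts lie along a rising band.

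In lungs after CLP, none of the 10 genes was called by edgeR, DESeq2 or limma-voom, and 1, Tap1, had an unadjusted p under 0.05 by each of them. Over all 17008 genes tested, edgeR called 0%, with 301 genes at an unadjusted p under 0.05, while DESeq2 called 5 and limma-voom 7. Tap1 had 81.1, 108.8 and 98.8 CPM in vehicle and 55.9, 44.4 and 64.6 CPM in β-NMN lungs. It was the 1 member of 10 whose groups did not overlap, against 8.21% of all genes tested, and its log2 fold change was -0.81 ± 0.24 (p = 0.0126, adjusted p = 0.969, exact permutation p = 0.1, the smallest that 3 against 3 allows). Psmb8, whose gene adjoins Tap1, had 65.5, 114 and 75.2 CPM in vehicle and 62.7, 38.9 and 66 CPM in β-NMN lungs (-0.60, interval -1.36 to 0.15). The highest of these values was from the vehicle replicate 2 lung, and without it the change was -0.33. Its groups overlapped by 1 β-NMN library at the edge of the vehicle range. Several marker sums did not overlap between the treatments in lung, namely those of macrophages (1370 to 4320 CPM in vehicle, 5020 to 5490 CPM in β-NMN lungs, mostly Lyz2), dendritic cells (42 to 75.6 against 77 to 97.2 CPM), cardiomyocytes (252 to 415 against 74.3 to 245 CPM) and liver, though no gene of these lists was called. The part of cell composition in the lung values was not tested.

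The heavy chains in lung turned on the vehicle replicate 2 library. H2-K1 had 1180, 694.7 and 1140 CPM in vehicle and 1090, 953.4 and 1069 CPM in β-NMN lungs, H2-D1 1449, 723.5 and 1484 against 1499, 1340 and 1405 CPM, and H2-Q7 102.1, 15.2 and 92.1 against 68.6, 74.2 and 88.4 CPM. In all 3 the vehicle replicate 2 lung was lowest. With it the log2 fold changes were 0.05, 0.22 and 0.14, and without it -0.16, -0.05 and -0.33. B2m was at 718.9, 356.3 and 613.9 CPM in vehicle and 590.3, 711.9 and 711.3 CPM in β-NMN lungs (0.25, interval -0.52 to 1.03). Without the vehicle replicate 2 lung, again the lowest, the B2m change was 0.00964. H2-Q10 (1.58, 4.91 and 3.4 against 1.22, 1.93 and 2.35 CPM) was at -0.82 with an interval of -2.06 to 0.43. This H2-Q10 value was -0.42 without the vehicle replicate 2 lung, the highest in this case. It turned to 0.07 with limma-voom and a quality weight per library. Without that lung Nlrc5 moved from -0.392 to -0.74. With it Tap2, Tapbp and Nlrc5 lay between -0.39 and -0.23, each with an interval that included 0. No gene of the pathway lists was called, and besides H2-Q10, Tap1 and Psmb8 the smallest p in each list belonged to Procr (-0.88), Psmb4 (-0.97), Nfyb (-0.54) and Ifngr2 (-0.44), each with an adjusted p of 0.969.

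Between organs of the same mice, 8 of the 10 genes were lower in heart than in lung and 0 were higher, where 35.9% of the 18318 genes tested were lower and 29.1% higher. The median difference of the 10 was -1.11, beside -0.14 over all genes. H2-Q7 differed most among the 4 heavy-chain members, 5.20-fold lower in heart (log2 difference -2.38 ± 0.38, adjusted p = 0.00013), followed by H2-K1 (3.17-fold, -1.66 ± 0.20, adjusted p = 1.24e-05) and H2-D1 (2.75-fold, -1.46 ± 0.21, adjusted p = 4.83e-05). B2m was 2.39-fold lower in heart (-1.26 ± 0.19, adjusted p = 7.6e-05) and Psmb8 3.61-fold lower (-1.85 ± 0.20, adjusted p = 5.28e-06). Tap1, Tap2 and Tapbp differed less, by -0.97, -0.75 and -0.95. H2-Q10 (0.45, interval -0.86 to 1.77) and Nlrc5 (-0.28, interval -1.03 to 0.47) did not pass the test. These fits did not use the mouse as a block, and with that block H2-Q10 turned to -0.10, also not called. Of 15 heavy chains tested, 13 were lower in heart, and of the 14 constitutive core subunits 0 were lower and 4 higher. The macrophage marker sum was 240 to 490 CPM in hearts and 1370 to 5490 CPM in lungs, and its part in these differences was not tested.

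The size of the β-NMN effect was then compared between tissues. Between heart and lung, edgeR called 0% of genes to differ in effect, with 797 at an unadjusted p under 0.05 and 14 called by DESeq2, and no member had an unadjusted p under 0.05. The member with the smallest p was Tap2 (0.42, interval -0.18 to 1.03, adjusted p = 0.96 by edgeR). Between peritoneal cells and heart, 2 of the 10 differed, H2-Q10 by -3.90 ± 0.79 (adjusted p = 0.00318) and H2-Q7 by -1.68 ± 0.51 (adjusted p = 0.0454), where 7.72% of 21111 genes were called. Between peritoneal cells and lung only H2-Q10 was called (-3.32 ± 0.80, adjusted p = 0.0125), where 7.53% of genes were, and H2-Q7 was at -1.31 with an adjusted p of 0.117. The H2-Q7 call against heart was lost in 20 of the 24 fits that left out 1 library. H2-Q10 against heart kept its call in all 24, with values from -4.68 to -2.39. These effect differences rest on 1 peritoneal comparison, and the tissue and the experiment cannot be told apart.

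Per kilobase of annotated exon, B2m had the highest mean of the 10 in every group, although in vehicle lungs its range overlapped that of H2-D1. In vehicle peritoneal cells it reached 4333 ± 553 CPM per kb (SD, n = 6), followed by H2-D1 at 2138 ± 243, H2-K1 at 1215 ± 146, Tapbp at 350.2 ± 39.9, Tap1 at 316.5 ± 47.7, H2-Q7 at 168.6 ± 38, Nlrc5 at 86.2 ± 19.3, Psmb8 at 65.1 ± 9.2, Tap2 at 54 ± 6.17 and H2-Q10 at 4.19 ± 0.99 CPM per kb. By this length the ranges of neighbours overlapped between Tapbp and Tap1, between Nlrc5 and Psmb8 and between Psmb8 and Tap2, and for no other neighbours in that group. With the longest transcript as the length, H2-K1 was at 1905 ± 229 CPM per kb there and overlapped with H2-D1, and H2-Q7 overlapped with Psmb8. After β-NMN, H2-Q7 per kb was 74.4 ± 6.18 and came below Nlrc5 at 82.1 ± 17.3, with overlapping ranges. In vehicle hearts B2m, H2-D1 and H2-K1 also led (187.1, 120.7 and 74.9 CPM per kb), whereas Nlrc5 was at 0.874 ± 0.42 and overlapped with H2-Q10. In vehicle lungs the same 3 led at 654.7, 472.6 and 342 CPM per kb, each range overlapping the next among them, and Nlrc5 was at 1.66 ± 1.14. Taking the longest transcript as the length kept 6 of the 10 places in vehicle peritoneal cells and all 10 in vehicle hearts. It moved 31 of the 60 levels per length by at least the SD of their group. Levels were scaled separately in each tissue and stand side by side only.

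**Figure D5:**
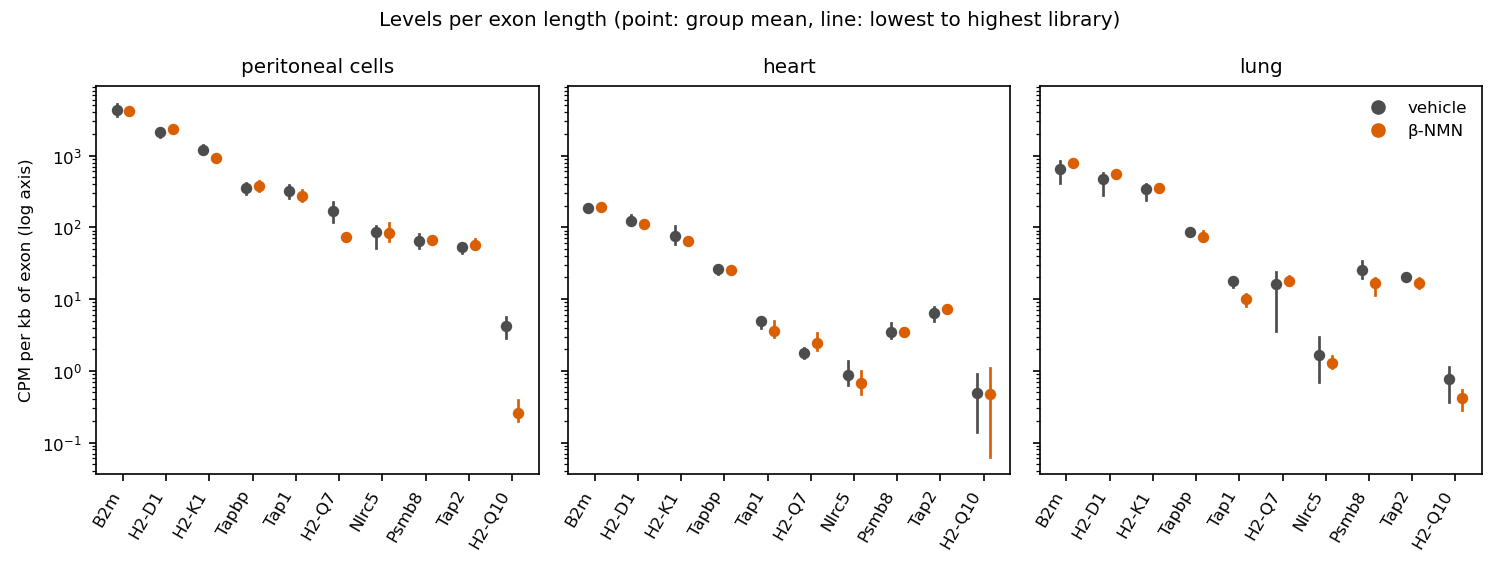
Level of the 10 genes in CPM per kb of annotated exon (log axis) in each tissue, with points at group means and lines from the lowest to the highest library, vehicle in grey and β-NMN in orange. B2m, H2-D1 and H2-K1 lead in all 3 panels, and H2-Q10 is last.

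Among the 12 peritoneal libraries, after each group's mean was subtracted, the genes whose log2 CPM followed Nlrc5 most closely were Rapgef2, Ncoa3, Usp7, Abl2 and Tut7, with Pearson r from 0.961 to 0.978. Of the members, Tap2 was the most like Nlrc5 (r = 0.841), then Tap1 (0.714) and H2-Q7 (0.663), while H2-D1 (0.358), Psmb8 (0.329) and B2m (0.319) followed it less and H2-Q10 least (0.0938). Many other genes followed Nlrc5 more closely: among all genes tested Tap2 took place 260, Tap1 974, H2-Q7 1311 and B2m 4152. H2-K1 and H2-D1 followed each other at r = 0.935 within groups. These values describe 12 libraries that share depth and scaling, and they are given without a test.

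By the annotation of GRCm38 (GENCODE M21), the members other than B2m (chr2:122147686-122153083, plus strand) and Nlrc5 (chr8:94434356-94527272, plus strand) lie on chromosome 17. Tap1 (chr17:34187553-34197225), Psmb8 (chr17:34197721-34201454) and Tap2 (chr17:34203527-34216321) follow one another on the plus strand. H2-D1 (chr17:35262730-35267499), H2-Q7 (chr17:35439155-35443773) and H2-Q10 (chr17:35470089-35474563), also on the plus strand, lie farther along, and H2-K1 (chr17:33996017-34000347, minus strand) and Tapbp (chr17:33915899-33929292, plus strand) lie before them. Exons of other genes overlapped 24.9% of Tapbp exon bases (Gm19412, antisense), 14.7% of those of Psmb8 (Gm20496, antisense), 14.1% of those of Tap2 (Gm15821, opposite strand) and 3.87% of those of Tap1 (Psmb9, opposite strand). Gm20496 overlapped a further 4.36% of Tap2 exon bases on the opposite strand, and Zbtb22 overlapped 4.11% of those of Tapbp on the same strand, where strand cannot separate reads in any case. Since no source used here gives the strand setting of the counting, reads of such partners cannot be told apart.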

How the data were processed

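RNA was poly(A)-selected and sequenced on an Illumina NovaSeq instrument. The authors aligned reads to mm10 with STAR (2.7.3a in the submitters' processing notes) and deposited unnormalized read counts per gene symbol from featureCounts 2.0.0, 1 table per experiment. The annotation, strand setting and handling of reads with several matches are given in no source used here.

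The 3 tissues were fitted separately in R 4.3.3 with edgeR 4.0.16. Low genes were removed with filterByExpr, libraries were scaled by TMM, and after estimateDisp the older quasi-likelihood fit and its F-test were used, following the study's methods. Adjusted p are Benjamini-Hochberg values over all genes tested, called under 0.05. Organs were compared over 12 libraries with treatment as a term, effects by interaction contrasts, and single genes by a two-sided exact permutation test of mean log2 CPM (prior count 2). The heart and lung of each mouse form a pair (correlation of deviations 0.0638 to 0.171). The reported organ comparison did not use the mouse as a block, which was an alternative, and vehicle and β-NMN mice share numbers only. Each library is 1 mouse. Among the β-NMN hearts 2 carry number 3, and the one whose mouse has lung number 2 was taken as replicate 2. Alternatives were DESeq2 1.42.0, limma-voom (limma 3.58.1), other size factors, no filter, the newer fit, replicate blocks, summed heavy chains, another length and leaving out each library. Every limma-voom fit used a quality weight per library, so that tool and weighting changed together. Splits at a total of 70000000 counts were added after seeing the data. Fits were checked on simulated counts.

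The members and gene lists were chosen with earlier results of these data known. Named were all members and, of each list in a tissue, up to 2 called genes per direction with the smallest p, or 1 gene where none was called, plus the 5 genes most like Nlrc5. 1 gene of the pathway lists is counted with its list but its own values are not reported here.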

Additional observations from a re-analysis of the deposited data

Results flagged for a closer look

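The ratio of H2-D1 to H2-K1 counts was highest in the β-NMN replicate 2 peritoneal library (2.42), and its gap to the next library took 0.896 of the group's range, above Dixon's critical value of 0.625. Of 22 groups of 6 tested in this way, 1 passed, and chance flags about 1 in 20.

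Effects that differed between tissues by an interaction contrast were those of H2-Q7 between peritoneal cells and heart (-1.68), of H2-Q10 between peritoneal cells and heart (-3.90) and of H2-Q10 between peritoneal cells and lung (-3.32). Tissue and experiment cannot be told apart in these contrasts.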

How the results depend on the processing

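All counts of members called were within 1.5 times the reported count under each alternative that kept all libraries, and no direction changed for H2-K1, H2-Q7 or H2-Q10 in peritoneal cells. Tap1 in peritoneal cells passed the threshold with limma-voom and its quality weights (-0.329). No value that changed sign was called before or after, and the largest of them as reported was H2-Q10 in lung (-0.817). With limma-voom they were Tap2 in peritoneal cells (-0.0218), H2-K1 (0.0639), H2-D1 (0.0577), Tapbp (0.0879), Psmb8 (0.0276) and summed heavy chains (0.0496) in heart, and H2-K1 (-0.138), H2-D1 (-0.0311), H2-Q7 (-0.213), H2-Q10 (0.0718) and summed heavy chains (-0.106) in lung. DESeq2 gave 0.00503 for Psmb8 in heart. Of the peritoneal splits chosen after seeing the data, the 7 shallower libraries gave -0.0291 for Psmb8 and 0.156 for Nlrc5, and the 5 deeper ones 0.0627 for B2m, 0.00643 for summed heavy chains and -0.296 for H2-K1, which was then not called. The cause of these shifts was not tested.

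With the replicate block, Psmb8 in heart was at 0.0226, and the replicate number changed no call. Same-numbered vehicle and β-NMN mice share only a number: the correlation of their deviations was -0.169 to 0.132 in peritoneal cells, 0.0735 to 0.241 in hearts and -0.518 to 0.304 in lungs. With the mouse as a replicate block, H2-Q10 between organs was at -0.103 (0.453 without the block), and the difference of organ effects was -0.0679 for H2-Q7 and -0.194 for Nlrc5, with no call changed.

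Leaving out 1 library at a time gave these lowest and highest values of the results that changed sign or side of the threshold. In peritoneal cells they were B2m -0.0697 to 0.0377. In heart they were H2-K1 -0.386 to 0.0634, H2-D1 -0.185 to 0.0555, H2-Q10 -1.64 to 0.649, B2m -0.0406 to 0.0833, Tapbp -0.17 to 0.0436, Psmb8 -0.135 to 0.255, Nlrc5 -0.788 to 0.091 and summed heavy chains -0.205 to 0.0368. B2m (0.00964 to 0.478), Psmb8 (-0.74 to -0.33) and H2-Q10 (-1.14 to -0.417) in lung were among those that kept their sign but moved by over 1.5 times. In lung those that changed sign were H2-K1 -0.161 to 0.186, H2-D1 -0.0517 to 0.393, H2-Q7 -0.333 to 0.516, Nlrc5 -0.74 to 0.306 and summed heavy chains -0.138 to 0.223. Between heart and lung they were H2-Q10 -0.241 to 0.699 and Nlrc5 -0.472 to 0.0453. For the difference of organ effects they were H2-K1 -0.433 to 0.0337, H2-Q7 -0.0288 to 0.841, H2-Q10 -0.89 to 1.44, B2m -0.473 to 0.0425 and Nlrc5 -0.697 to 0.487. For the peritoneal effect against that in heart they were the number of members called 1 to 2, H2-Q7 -1.83 to -1.37, Tap2 -0.322 to 0.0257, Psmb8 -0.215 to 0.192 and Nlrc5 -0.204 to 0.687. For the peritoneal effect against that in lung they were H2-D1 -0.297 to 0.212 and Nlrc5 -0.404 to 0.686. The 3 calls in peritoneal cells were kept in all 12 such fits, and in the other comparisons no call changed but that of H2-Q7 against heart.

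Depth limits the lungs most: the vehicle replicate 2 lung had 8915366 counts, so that 3 counts there stand for 0.433 CPM, and with 3 mice per group no exact permutation test can go below p = 0.1.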
